A study of Homo sapiens with 4 samples.

Results

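The genes of heme synthesis and of erythroid iron uptake were followed through a microarray experiment on 5-azacytidine (AZA) in cultured myelodysplastic syndrome cells. The members were ALAS1, ALAS2, ALAD, UROS, UROD, CPOX, PPOX, FECH and TFRC, chosen by name, and every gene probe that the array design assigns to one of these names was taken. This gave 12 probes for 9 genes, out of 58185 probes for 43311 gene names. The 4 conditions were measured on 1 array each, namely MDS-L cells with vehicle, MDS-L cells with AZA, MDS-L/CDA cells with vehicle and MDS-L/CDA cells with AZA. MDS-L is a line established from the cells of a patient with a myelodysplastic syndrome (MDS). MDS-L/CDA is its AZA-resistant derivative, made by transducing CDA, which encodes a deaminase that inactivates cytidine analogues. They are called parental and resistant cells in what follows. Treatment was 1 μM AZA or 0.1% DMSO for 72 h, and all cultures received IL-3. The dose is given as 1 mM in another label field, and 1 further field names the opposite treatment for the MDS-L AZA and the MDS-L/CDA vehicle arrays, where the titles, source names and descriptions give the treatments used here.

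All 4 arrays lay on 1 slide. Signals are given as multiples of the 75th percentile of the array, here called scaled signal, and a probe counted as detected where the scanner software marked it as well above background, which it did for 32.6 to 36.5% of probes. The lowest scaled signal so marked was 0.190 on both parental arrays, 0.272 on the resistant vehicle array and 0.296 on the resistant AZA array. Because each condition had 1 array, no difference could be tested and the number of arrays limits the precision. The error given beside a log2 ratio is an SE from the spread between spots within an array, taken from the gene's own 10 spots where it has them and otherwise from the 20 probes with 10 spots nearest to it in brightness. Error from hybridization or from the cultures is not part of it. DNMT1, the methyltransferase that AZA traps, had AZA/vehicle ratios of 0.799 in parental and 1.11 in resistant cells. CDA was not detected on any array, so it could not serve as a check of which arrays came from resistant cells.

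Heme is made in a chain of enzymatic steps that begins in mitochondria, continues in the cytosol and ends in mitochondria again. The first step, the joining of glycine and succinyl-CoA by 5-aminolevulinate synthase, has a housekeeping form, ALAS1, which heme itself represses, and an erythroid form, ALAS2, which is X-linked, is driven by GATA1 and is translated when iron is plentiful. Red cell precursors take up the iron for the last step through the transferrin receptor, TFRC, whose mRNA is stabilized when iron is scarce, and defects of this pathway are known from sideroblastic anemias, including forms of MDS.

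The 5′-flanking sequences of the synthase genes and of CPOX are shown because these genes stand for the undetected erythroid form, the housekeeping form and the enzyme with the highest AZA/vehicle ratios. They are the 250 bases before the RefSeq start in GRCh38.p14, written in the direction of transcription, for which 8 of the 9 members had an entry. Capitals mark TTATCT, the reverse complement of AGATAA, which is one of the GATA motifs searched on both strands. These were AGATAA and its variant AGATAG, together with TGATAA and its variant TGATAG. ALAS2 lies at chrX:55030978-55031227 on the minus strand, CPOX at chr3:98593612-98593861 on the minus strand and ALAS1 at chr3:52197833-52198082 on the plus strand.
ALAS2: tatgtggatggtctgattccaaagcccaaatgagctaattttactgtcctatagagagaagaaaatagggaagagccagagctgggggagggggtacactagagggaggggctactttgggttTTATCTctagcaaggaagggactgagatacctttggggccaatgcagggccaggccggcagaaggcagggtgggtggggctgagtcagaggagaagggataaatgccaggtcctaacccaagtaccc
CPOX: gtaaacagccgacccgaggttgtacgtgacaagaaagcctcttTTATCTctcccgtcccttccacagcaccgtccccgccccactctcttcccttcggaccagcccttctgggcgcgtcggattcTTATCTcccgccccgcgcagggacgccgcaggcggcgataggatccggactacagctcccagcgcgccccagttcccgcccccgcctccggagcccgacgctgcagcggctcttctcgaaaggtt
ALAS1: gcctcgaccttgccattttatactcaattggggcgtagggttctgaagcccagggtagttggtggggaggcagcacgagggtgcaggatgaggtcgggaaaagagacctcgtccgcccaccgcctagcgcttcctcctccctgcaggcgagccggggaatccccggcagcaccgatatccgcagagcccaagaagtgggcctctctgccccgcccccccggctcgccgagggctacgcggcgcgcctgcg

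The letters of a GATA motif stood in the windows of 2 of the 8 members, ALAS2 with 1 match and CPOX with 2. They stood in 22.9% of 27305 promoters of the same length. The ALAS2 match began at position -127 from the start, and those of CPOX began at -207 and -125. The CACC motif CCACACCC, searched on both strands and present in 2.90% of promoters, was in none of the 8 windows. A match is a run of letters and not a measured binding site. The windows also differed in CG dinucleotides, the sites that DNA methyltransferases modify. ALAS2 had 1 CG, the other 7 members had between 12 and 29, and the median of all promoters was 11. The start of the ALAS2 transcript also held the loop letters CAGTGN of an iron-responsive element, the hairpin through which iron-regulatory proteins block translation. They began at base 21 after the start, are in capitals in the 30-base stretch below, and occurred within 50 bases after the start in 6.43% of all promoters and in no other member.
ALAS2 iron-responsive element: ttcgttcgtcctCAGTGCagggcaacaggt

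In parental cells the clearest difference was in TFRC, whose signal with AZA was 0.520 times that with vehicle, whereas CPOX was at 1.59 times its vehicle level. In the resistant line CPOX was at 2.21 times and ALAD at 0.441 times the vehicle level, and TFRC was at 0.796 times. By the brightest probe of each, the remaining detected enzymes, ALAS1, UROS, UROD, PPOX and FECH, had AZA/vehicle ratios between 0.853 and 1.30 in the 2 lines. A dimmer FECH probe had a ratio of 0.453 in parental cells. ALAS2 was not detected in any condition.

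**Figure D1:**
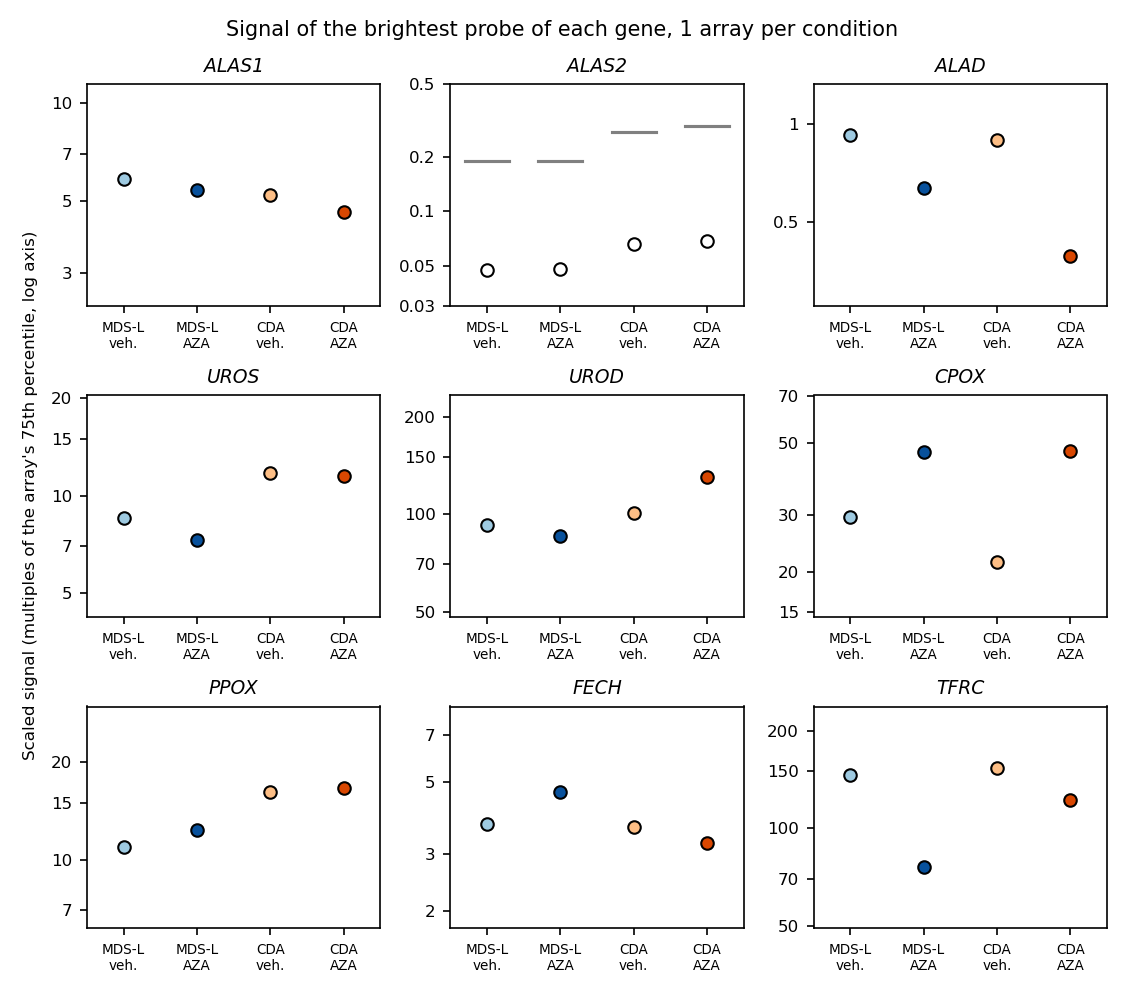
Scaled signal of the brightest probe of each gene (multiples of the array's 75th percentile, log axis) on the 4 arrays, 1 point per array, with CDA standing for MDS-L/CDA. Filled points are well above background, open points are not, and the grey bars in the ALAS2 panel mark the lowest signal well above background on each array. ALAS2 lies below these bars on all arrays, TFRC is lowest in MDS-L cells with AZA, and CPOX reaches 47.0 and 47.4 with AZA in the 2 lines. Signals cannot be compared between panels, since each comes from another probe.

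ALAS2 had 1 probe (hg19, chrX:55035505-55035564, minus strand). Its scaled signal was 0.0474 in parental vehicle, 0.0484 in parental AZA, 0.0665 in resistant vehicle and 0.0687 in resistant AZA. All 4 values lie below the detection limit of their arrays, so no ratio is given, and a change beneath that limit was not detectable. ALAS1, the housekeeping form, was detected on every array by its probe at hg19 chr3:52246277-52246336, plus strand. It gave 5.86 in parental vehicle, 5.42 in parental AZA, 5.22 in resistant vehicle and 4.61 in resistant AZA. The log2 ratios of -0.11 ± 0.23 in parental cells and -0.18 ± 0.38 in resistant cells (SE from spots) were smaller than their errors, and in parental cells the sign differed under 2 of 5 other normalizations.

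ALAD encodes the cytosolic enzyme that joins 5-aminolevulinate into porphobilinogen. Its probe (hg19, chr9:116149174-116149233, minus strand) gave 0.927 in parental vehicle, 0.637 in parental AZA, 0.893 in resistant vehicle and 0.393 in resistant AZA. The vehicle arrays of both lines were close to each other, and both AZA arrays were lower. The log2 AZA/vehicle ratio was -0.54 ± 0.26 in parental cells and -1.18 ± 0.55 in resistant cells (SE from spots). Both kept their sign under all 5 other normalizations. The probe was dim, and with normexp background correction, which compresses ratios of dim probes, the ratio in resistant cells was 0.778 and no longer past 2-fold.

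UROS closes the tetrapyrrole ring, and UROD then removes carboxyl groups from it. The brightest of the 3 UROS probes gave 8.57 in parental vehicle, 7.31 in parental AZA, 11.8 in resistant vehicle and 11.6 in resistant AZA. Its log2 AZA/vehicle ratio was -0.23 ± 0.18 in parental cells and -0.03 ± 0.28 in resistant cells (SE from spots). A further probe gave 7.43, 7.16, 6.15 and 7.42 on the arrays in the same order, and the 2 probes disagree on the lines, with a resistant over parental ratio in vehicle of 1.38 by the brightest and 0.828 by the other. They are shown because they share 34 of their 60 bases, in capitals, and differ only in which side of that run they extend to. In the order printed they lie on the minus strand of hg19 at chr10:127486690-127496016, which spans a gap, and at chr10:127495983-127496042.
UROS, brightest probe: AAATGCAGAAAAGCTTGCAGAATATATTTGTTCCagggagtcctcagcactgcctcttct
UROS, overlapping probe: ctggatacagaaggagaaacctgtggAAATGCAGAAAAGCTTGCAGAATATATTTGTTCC

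The remaining UROS probe (hg19, chr10:127495721-127495780) was detected in resistant vehicle alone, at a scaled signal of 0.353. UROD had 1 probe (hg19, chr1:45480655-45481044, plus strand), with 92.8 in parental vehicle, 85.5 in parental AZA, 101 in resistant vehicle and 131 in resistant AZA. resistant cells with AZA were the highest of the 4. The log2 AZA/vehicle ratio was -0.12 ± 0.17 in parental cells and 0.37 ± 0.22 in resistant cells (SE from spots), and the former changed sign with quantile normalization (0.15).

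CPOX, which returns the pathway to the mitochondrion by oxidizing coproporphyrinogen, was the enzyme with the highest AZA/vehicle ratio in both lines. Its probe (hg19, chr3:98298313-98298372, minus strand) gave 29.5 in parental vehicle, 47.0 in parental AZA, 21.4 in resistant vehicle and 47.4 in resistant AZA. On this scale the AZA arrays of the 2 lines were nearly equal, with a log2 difference of 0.01, and lay above both vehicle arrays. Before scaling they were not equal, at intensities of 2487 in parental AZA and 1766 in resistant AZA. The log2 ratio was 0.67 ± 0.15 in parental cells and 1.15 ± 0.26 in resistant cells (SE from spots). Among resistant cells the ratio was between 2.02 and 2.26 under all 5 other normalizations. In parental cells it was between 1.09 and 1.87, the lowest when each array was scaled to its median, which also moved the median of all genes by -0.54 on the log2 scale.

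PPOX and FECH carry out the last steps, the oxidation to protoporphyrin and the insertion of iron. The PPOX probe (hg19, chr1:161140844-161140903, plus strand) gave 10.9 in parental vehicle, 12.4 in parental AZA, 16.2 in resistant vehicle and 16.7 in resistant AZA. Both arrays of the resistant line were above both of the parental line on this scale, but with median scaling the log2 ratio between the lines in vehicle was 0.05. The brighter FECH probe (hg19, chr18:55215570-55215629, minus strand) gave 3.72 in parental vehicle, 4.66 in parental AZA, 3.64 in resistant vehicle and 3.26 in resistant AZA. Its log2 AZA/vehicle ratio was 0.32 ± 0.26 in parental cells and -0.16 ± 0.40 in resistant cells (SE from spots). With each array scaled to its median, the FECH ratio in parental cells was below 1 (-0.22 on the log2 scale), and so was that of PPOX. The other FECH probe (hg19, chr18:55212702-55212761, minus strand) disagreed with the brighter one. It gave 0.613 in parental vehicle and 0.278 in parental AZA, a ratio of 0.453, and was not well above background in resistant cells.

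TFRC, printed in 10 spots on each array (hg19, chr3:195776593-195776652, minus strand), is the best measured of these genes. Its scaled signal was 147 in parental vehicle, 76.3 in parental AZA, 153 in resistant vehicle and 122 in resistant AZA. Vehicle arrays of the 2 lines were similar, and the array of parental cells with AZA was the lowest. In bulk RNA, fewer cells that carry a transcript and less of it per cell cannot be told apart. In parental cells the spots ran from 132 to 164 with vehicle and from 58.3 to 95.7 with AZA, without overlap. In resistant cells they ran from 100.1 to 191 with vehicle and from 86.2 to 164 with AZA, and overlapped. The log2 AZA/vehicle ratio was -0.94 ± 0.09 in parental cells and -0.33 ± 0.13 in resistant cells, which differ by -0.61 ± 0.16 (SE from spots). Spots of an array share 1 RNA, so this error says nothing about another culture. Over 5 other normalizations the ratio in parental cells was between 0.357 and 0.622, and that in resistant cells between 0.720 and 0.825.

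**Figure D2:**
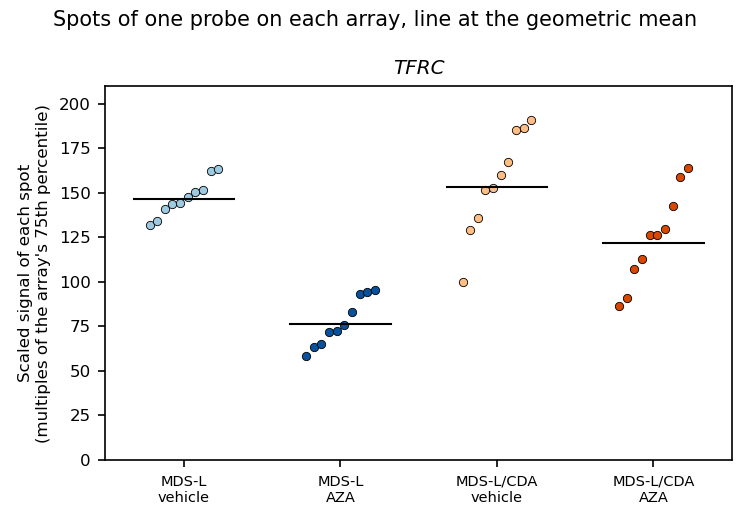
Scaled signal of each of the 10 spots of the TFRC probe (multiples of the array's 75th percentile) on the 4 arrays, with a line at the geometric mean. TFRC spots of MDS-L cells with AZA, at 58.3 to 95.7, lie below all those of MDS-L cells with vehicle, and the spots of the 2 MDS-L/CDA arrays overlap.

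Among the 8 detected members, 0 were at least 2-fold higher and 0 at least 2-fold lower with AZA in parental cells, where 6.73% of 17172 measured genes were at least 2-fold higher and 6.03% lower. In resistant cells 1 was higher (CPOX) and 1 lower (ALAD), where 2.53% of 15393 measured genes were higher and 3.07% lower. These counts are too small to set against such shares. The median log2 ratio of the members was -0.12 in parental cells, beside -0.13 over all measured genes, and -0.09 in resistant cells, beside 0.02. Within the members, TFRC and ALAD lay below these medians and CPOX above them in both lines.

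**Figure D3:**
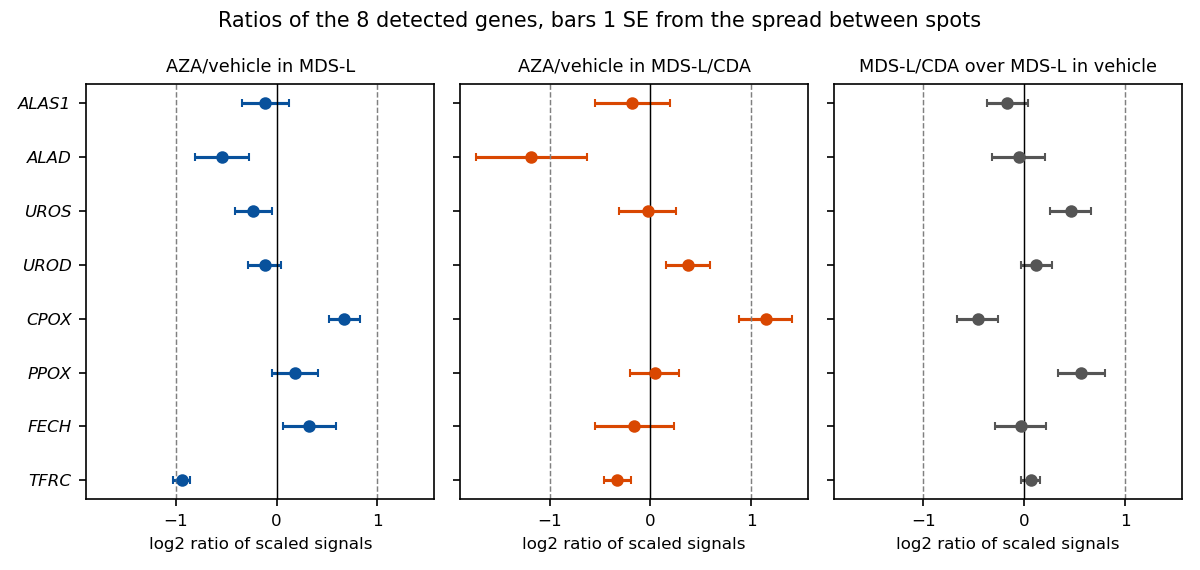
Log2 ratios of scaled signal for the 8 detected genes in the 3 comparisons, with bars of 1 SE from the spread between spots and dashed lines at 2-fold. With AZA, CPOX lies above 0 and ALAD and TFRC below 0 in both lines, and between the lines in vehicle PPOX and UROS are highest and CPOX is lowest.

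Without AZA none of the 8 detected genes differed 2-fold between the lines by its brightest probe. The resistant over parental log2 ratio in vehicle was 0.57 ± 0.24 for PPOX, 0.46 ± 0.21 for the brightest UROS probe and -0.46 ± 0.20 for CPOX (SE from spots). The sign for PPOX and CPOX was the same under 5 other normalizations and that for UROS under 4 of them, but with median scaling PPOX was at 0.05 and CPOX at -0.98. For TFRC the log2 ratio was 0.06 ± 0.10 and had the opposite sign under all 5, so no order of the lines can be given. Of the 8 members, 0 were 2-fold higher and 0 were 2-fold lower, beside 1.97% and 2.64% of 16015 measured genes. By the dimmer FECH probe the signal in resistant cells was at least 2.25-fold lower. The median over the members was 0.02, beside 0.06 over all measured genes.

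Around the pathway, the genes that supply mitochondria with substrates and carry intermediates had ratios below 1 with AZA in parental cells for 9 of 11 measured genes, with a median log2 ratio of -0.28, where 10114 of 17172 measured genes were below 1 and their median was -0.13. With quantile normalization it was 6 of 11 and -0.08, and with median scaling the median was -0.82. Resistant cells had 6 of 11 below 1 and a median of -0.11, where 7434 of 15393 measured genes were below 1 and their median was 0.02. ABCB10, an inner membrane transporter that erythroid cells need for heme synthesis, had a scaled signal of 5.13 in parental vehicle, 1.82 in parental AZA, 5.25 in resistant vehicle and 0.973 in resistant AZA. It was thus lower with AZA in both lines, at ratios of 0.355 and 0.185, and between 0.244 and 0.448 in parental and between 0.169 and 0.364 in resistant cells over the normalizations tried. SLC25A38, the mitochondrial glycine importer, had a ratio of 0.585 in parental cells and 1.24 in resistant cells. CLPX, an unfoldase that activates 5-aminolevulinate synthase, had ratios of 1.07 and 1.30, and FAM210B, which helps iron into mitochondria, 1.22 and 0.851, and both were below 1 in parental cells with median scaling.

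Iron-sulfur clusters compete with heme for mitochondrial iron, and all 9 measured assembly genes were below 1 in parental cells, with a median log2 ratio of -0.28 and 2 at least 2-fold lower, beside 6.03% of all measured genes. With quantile normalization 7 of 9 were below 1 and 1 was 2-fold lower. The 2 were LYRM4, a subunit of the cysteine desulfurase complex, at 0.378, and ISCA1, a late assembly factor, at 0.487, which over the normalizations tried ranged from 0.335 to 0.586 and so was not always past 2-fold. The same genes had ratios of 0.993 and 1.04 in resistant cells, 6 of 9 genes were below 1 and the median was -0.09. The scaffold ISCU had a ratio of 0.948 in parental cells and 0.524 in resistant cells, and ISCA2 had 0.856 and 0.651. Over all measured genes, 10114 of 17172 were below 1 in parental cells and 7434 of 15393 in resistant cells.

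Of the genes of iron uptake, storage and sensing, 13 of 16 were measured, and 1 was at least 2-fold lower in parental cells, beside 6.03% of all measured genes. This was STEAP3, the endosomal reductase that acts on iron delivered by the transferrin receptor. Its scaled signal was 8.89 in parental vehicle, 4.41 in parental AZA, 10.6 in resistant vehicle and 10.3 in resistant AZA. As with TFRC, the lowest of the 4 arrays was that of parental cells with AZA, with a ratio of 0.496 that ranged from 0.341 to 0.553 over the normalizations tried and was past 2-fold here and with median scaling alone. The storage subunit FTL had a ratio of 1.58 in parental cells and 1.11 in resistant cells, and NCOA4, the receptor that delivers ferritin for breakdown, had 1.47 and 1.41. ACO1, the cytosolic aconitase that becomes an iron-regulatory protein when it loses its cluster, had 0.606 and 0.641. The median log2 ratio of the group was -0.02 in parental and 0.08 in resistant cells, and its sign changed with quantile normalization in the former (0.18) and with no scaling in the latter (-0.05).

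Among 7 measured genes of heme breakdown, export and sensing, 2 were at least 2-fold higher with AZA in parental cells, beside 6.73% of all measured genes, and 0 in resistant cells, beside 2.53%. With median scaling 1 was higher and 1 lower in parental cells. HMOX1, the inducible heme oxygenase, gave 8.02 in parental vehicle, 27.3 in parental AZA, 5.44 in resistant vehicle and 7.99 in resistant AZA. The ratio was 3.40 in parental cells and 1.47 in resistant cells. SLC48A1, which carries heme out of lysosomes, had 2.31 and 1.08, the former being 1.58 with median scaling. At the other end, FLVCR1, a heme exporter, had 0.502 and 1.06, and BLVRB, a biliverdin reductase, had 0.810 and 1.04. The median log2 ratio of the group was -0.08 in parental and 0.09 in resistant cells, and again changed sign with quantile normalization in the former (0.11) and with no scaling in the latter (-0.04).

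**Figure D4:**
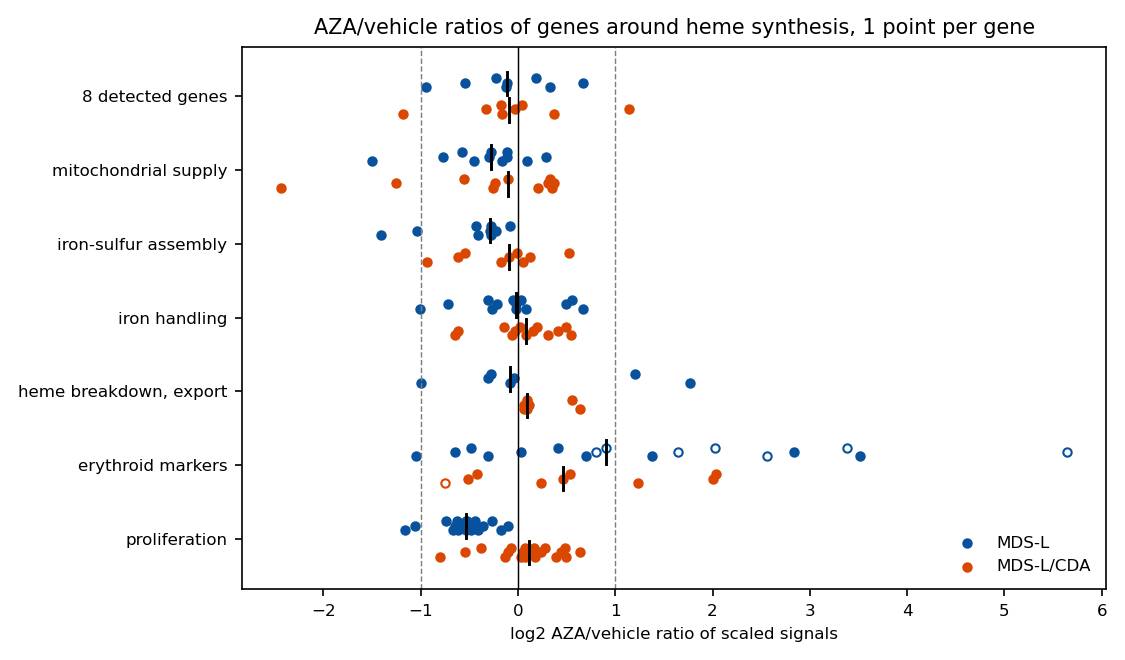
Log2 AZA/vehicle ratios of scaled signal for the 8 detected genes and 6 groups of related genes, 1 point per gene, with MDS-L in blue and MDS-L/CDA in orange, black bars at the medians, open points for bounds and dashed lines at 2-fold. Erythroid markers extend to the right in MDS-L cells, all 20 proliferation genes lie below 0 in MDS-L cells and 6 of 20 in MDS-L/CDA cells, and the detected heme genes are spread about 0 in both lines. Over all measured genes, not drawn, 10114 of 17172 lie below 0 in MDS-L cells and 7434 of 15393 in MDS-L/CDA cells.

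Some erythroid markers were at least 2-fold higher with AZA, among them GATA1, which acts upstream of ALAS2. Of 21 such genes on the array, 10 were well above background in parental vehicle, 17 in parental AZA, 9 in resistant vehicle and 8 in resistant AZA, and 4 on none. Their summed scaled signal was 108, 328, 101 and 159 in the same order, most of it from NFE2 (89.2, 231, 86.7 and 125, named after its values were seen). In parental cells 8 of 17 measured genes were at least 2-fold higher, beside 6.73% of all measured genes, and 1 was 2-fold lower, with a median log2 ratio of 0.91. Resistant cells had 3 and 0 of 9, beside 2.53% higher over all measured genes, with a median of 0.46. The parental count of higher genes included bounds, from genes detected there with AZA alone. With normexp background correction 5 of 17 and 1 of 9 were 2-fold higher, and the medians were 0.42 and 0.20. GATA1, the transcription factor that drives ALAS2, gave 1.26 in parental vehicle, 14.4 in parental AZA, 0.507 in resistant vehicle and 2.08 in resistant AZA, ratios of 11.4 and 4.10. Over the normalizations tried these ranged from 6.76 to 12.6 and from 1.84 to 4.10. HBD, a globin gene, had ratios of 7.16 and 4.02. KLF1, an erythroid transcription factor, stood at 0.639 and 0.701, and EPB42, a red cell membrane protein, at 0.483 and 0.746. ALAS2 remained below the detection limit on the arrays where GATA1 was higher.

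Some markers of other cell types were at least 2-fold higher with AZA as well. Over all measured genes the shares were 6.73% in parental and 2.53% in resistant cells. Of the megakaryocyte markers, a lineage that shares GATA1 with the erythroid one, 3 of 4 measured genes were at least 2-fold higher in parental cells (median log2 ratio 3.28) and 2 of 3 in resistant cells (1.66; 0 of 3 with normexp). Each of these counts included a bound, from a gene that the line showed above background with AZA alone. VWF had ratios of 11.5 and 4.78. The progenitor gene KIT stood at 47.3 and 3.58, ranging from 1.46 to 3.58 in resistant cells. It was the 1 of 6 progenitor markers that was 2-fold higher in each line. HLA-DRA went the other way, at 0.329 and 0.480, ranging from 0.438 to 0.577 in resistant cells. In each line 3 of the 6 were below 1, with a median log2 ratio of -0.01 in parental and 0.11 in resistant cells. Among granulocyte and monocyte markers 2 of 6 were 2-fold higher in parental cells (0 with normexp) and 0 of 4 in resistant cells. Both were bounds, from genes that parental cells showed above background with AZA alone. The 2 below 1 in parental cells were CSF3R at 0.560 and CD14 at 0.669. Summed signal of this group in parental cells was 8.64 with vehicle and 6.70 with AZA, most of it from CSF3R (7.39 and 4.14). All 5 measured mast cell and basophil markers were at least 2-fold higher in parental cells, their summed signal being 30.4 with vehicle and 224 with AZA, and 3 of 5 in resistant cells (2 of 5 with normexp), where it was 12.3 and 54.7. CMA1, which defines connective tissue mast cells, was detected on none of the arrays. All 20 proliferation genes were below 1 in parental cells (18 with quantile normalization), with a median log2 ratio of -0.53 and a summed signal of 2650 with vehicle and 1763 with AZA. The resistant cells had 6 of 20 below 1, and the sums were 3305 and 3165. Over all measured genes, 10114 of 17172 were below 1 in parental and 7434 of 15393 in resistant cells. The median log2 ratio in resistant cells was 0.12, and with no scaling it was -0.01, with 10 of 20 below 1. The part of these markers in the values of the heme genes was not tested. 

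Patterns over the 4 arrays were compared across 13961 genes detected on all of them, by the Euclidean distance between centred log2 signals. The genes nearest to TFRC were ENST00000390556 at 0.02, MAP3K6 at 0.04 and TUBG1, a tubulin of the centrosome, at 0.04. TUBG1 gave 122 in parental vehicle, 63.5 in parental AZA, 127 in resistant vehicle and 105 in resistant AZA. Those nearest to ALAS1 were HIST1H2BD, lnc-SLC25A21-1 and lnc-NDST2-3, at 0.03 to 0.04. With 4 arrays and so many genes, near neighbours are found for most patterns, and these are given as a description.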

How the data were processed

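The authors deposited the scanner output of 4 one-colour arrays, made with Agilent Feature Extraction 10.7.1.1, and their own value table, both as intensity on a linear scale. Background had been subtracted from the scanner intensity within each array, with no step between arrays, and probe positions are those of hg19. Control spots and outlier spots were left out (16 probes), log2 intensity was averaged over spots, and each array's 75th percentile was subtracted. The brightest probe stood for a gene. Where 1 array of a pair was not well above background, it was set to its own signal or, if higher, the lowest signal so marked on that array, giving a bound. Members and the 11 gene lists were chosen with earlier results of these data known. Named genes are all members and, of each list, the 2 highest and 2 lowest AZA/vehicle ratios in MDS-L cells. The latter were taken among genes well above background on both arrays (bounds left out). GATA1, KLF1, DNMT1 and CDA were added, with the 3 nearest in pattern to TFRC and ALAS1. Not all genes so named are printed. The 2-fold rule follows the study's methods without its Z score. The error from spots was added after the values were seen. Alternatives were median, no and quantile scaling, normexp (offset 50), the value table, a ratio of 1.5, a Z score and other probes. No annotation of hg19 was used here, so exons and UTRs are not given. Python 3.11.15, numpy 2.4.6, pandas 2.3.3, matplotlib 3.10.9, R 4.3.3 and limma 3.58.1 were used. Items withheld from this account are not reported here.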

Additional observations from a re-analysis of the deposited data

Results flagged for a closer look

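UROD and FECH had AZA/vehicle ratios in opposite directions in the 2 lines, the parental MDS-L and the resistant MDS-L/CDA cells. The log2 ratio of UROD was -0.12 in parental cells and 0.37 in resistant cells, and that of the brighter FECH probe was 0.32 in parental cells and -0.16 in resistant cells. UROD was above 0 in both lines with quantile normalization (0.15 and 0.38), FECH was below 0 in both with median scaling (-0.22 and -0.21), and the dimmer FECH probe was at -1.14 in parental cells. With 1 array per condition this difference between the lines was not tested, and its size was -0.49 ± 0.28 for UROD and 0.48 ± 0.47 for FECH (parental minus resistant, SE from spots).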

How the results depend on the processing

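The median log2 ratio of the members in parental cells was -0.66 with each array scaled to its median, which moved all genes by -0.54. Between the lines in vehicle it was -0.51 with median scaling and -0.35 with no scaling, which moved all genes by -0.50 and -0.34. In parental cells the number of members past the ratio was 1 higher (CPOX) and 1 lower (TFRC) at a ratio of 1.5, 2 lower with median scaling (ALAD and TFRC), and 1 lower when any probe of a gene could pass (FECH). In resistant cells 0 were 2-fold lower with normexp, and between the lines 1 was lower when any probe could pass (FECH). The other counts of the members did not change, and the other medians moved by less than the limit used, 0.216 on the log2 scale. Signs of these medians were not all kept. The median in parental cells was 0.09 with quantile normalization. Between the lines in vehicle the median of 0.02 was below 0 under all other normalizations, at -0.04 with quantile normalization. CPOX and ALAD, past 2-fold in resistant cells, kept their direction. Counts and medians of the other gene groups moved more, and in parental cells the proliferation genes at least 2-fold lower were 2, or 13 with median scaling and 0 with quantile normalization. No paired analysis was possible because each condition had 1 array and the 2 lines are not replicates of each other, and no array could be left out.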
